A study of Homo sapiens with 6 samples.

Results

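The microRNA (miRNA) processing and silencing machinery was examined here through 9 genes, DICER1, DROSHA, DGCR8, XPO5, TARBP2, PRKRA, TNRC6A, TNRC6B and TNRC6C, which were taken by symbol from the 23228 genes of the count tables. All 9 had a row, and all 9 had enough reads to be tested. They were compared between 3 replicates of MDA-MB-231 cells carrying a non-targeted control shRNA and 3 replicates carrying a PELP1 shRNA (PELP1-KD). The MDA-MB-231 line derives from a human triple negative breast cancer (TNBC), and PELP1 is a nuclear receptor coregulator that also takes part in ribosome assembly. Both groups were stable lentiviral lines under puromycin selection, grown in RPMI with 10% serum. The labels name no shRNA sequence and do not say whether replicates were selected separately. The p-values therefore measure only the spread between these samples, which may be technical. The paper names a single PELP1 shRNA for its knockdown lines, so effects of that shRNA sequence and of PELP1 loss cannot be told apart. An shRNA is itself matured by part of the miRNA machinery, and both groups carried one, so the comparison does not measure shRNA expression as such.

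A miRNA starts as a hairpin in a long primary transcript (pri-miRNA). In the nucleus the Microprocessor, made of the nuclease DROSHA and the RNA-binding protein DGCR8, cuts the hairpin out as a pre-miRNA, which XPO5 carries to the cytoplasm. There DICER1, with TARBP2 or PRKRA, cuts off the loop, and a strand of the duplex is loaded into an Argonaute protein. Argonaute recruits a TNRC6 protein, which in turn brings the enzymes that remove the poly(A) tail and the cap of the targeted mRNA. DROSHA also cuts hairpins in the 5' end of the DGCR8 mRNA itself, a known feedback on DGCR8.

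The libraries held between 17304864 and 23132102 reads counted on genes, and 3 reads corresponded to between 0.13 and 0.173 CPM (read counts of a gene per 1e+06 reads of its library). PELP1 fell, with a mean of 57.8 ± 2.13 CPM in controls and 29.6 ± 0.876 CPM in PELP1-KD cells (SD, n = 3 each; edgeR adjusted p 1.48e-11), so the knockdown target was lower in the libraries labelled PELP1-KD. VIM stood at 2220 CPM in control cells, while ESR1, PGR and CDH1 had at most 4 reads in any library. ERBB2 and EPCAM, genes listed as low in this line, were at 112.7 and 9.46 CPM in control cells, and neither passed the edgeR test between groups. VIM, CD44 and EGFR, listed as present, were lower in PELP1-KD cells (log2 fold change -0.21, -0.55 and -0.26, edgeR adjusted p 7.18e-06, 8.61e-13 and 1.07e-05). Of 7 markers of leukocytes, endothelium and stroma, PTPRC and DCN were at 0 in every library and 3 were tested, of which PDGFRB and VWF were higher and CD68 lower in PELP1-KD cells. PDGFRB averaged 15.7 CPM in controls and 45.55 CPM in PELP1-KD cells (log2 fold change 1.53, edgeR adjusted p 3.73e-13). CD68 averaged 117.7 and 93.8 CPM (log2 fold change -0.33, edgeR adjusted p 1.7e-06), and VWF 0.108 and 0.744 CPM. The summed level of the 7 markers, mostly CD68, was between 131 and 137 CPM in controls and between 136 and 145 CPM in PELP1-KD cells. These sums hide the opposite moves of PDGFRB and CD68. The part of these markers in the results was not tested. Control replicate 1 differed more from the other controls (chi-square per degree of freedom 3.87 and 4.11) than those did from each other (1.47). PELP1-KD replicate 2 likewise differed more from PELP1-KD replicates 1 and 3 (2.75 and 2.71) than those did from each other (1.51).

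Within this machinery 2 genes changed and 7 did not pass the test. DGCR8 was 15% lower in PELP1-KD cells and DICER1 was 11.4% higher. A gene was called when its adjusted p in the quasi-likelihood test of edgeR was under 0.05. The 2 called genes are 22.2% of the 9, where 46.9% of the 12796 tested genes were called. DESeq2 (39.8% of all tested genes called), limma-voom (47%) and a replicate block (50.6%) also called 1 of the 9 lower and 1 higher. With library totals (48.7%) 1 was lower and 3 higher, with offsets for G+C content and length (51.6%) 2 were lower and 2 higher, and with offsets and block together (51.3%) 2 were lower and 3 higher. In bulk RNA, fewer cells expressing a gene and less of its RNA per cell cannot be told apart. The groups did not overlap in 1 of the 9 genes, where they did not overlap in 55% of all tested genes. The median size of the log2 fold change (log2FC), regardless of sign, was 0.07 in the 9 genes and 0.17 over all tested genes. The signed medians were 0.03 and 0.0014. The largest log2FC in size among the 9 was that of DGCR8, at -0.24.

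**Figure D1:**
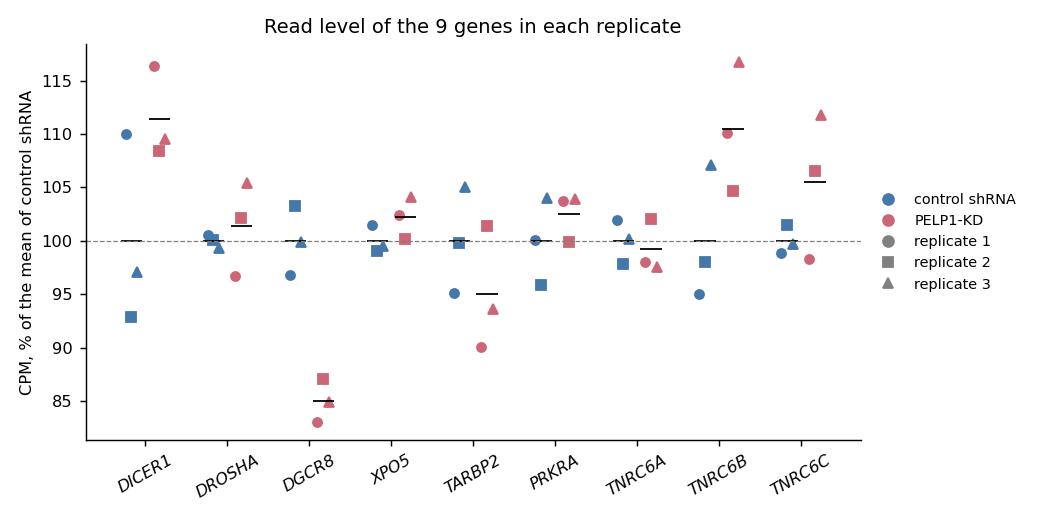
Level of each of the 9 genes in each replicate, as CPM in percent of the mean of the 3 control replicates (blue, control shRNA; red, PELP1-KD; marker shape, replicate number; black line, group mean; the vertical axis does not start at 0). DGCR8 is the gene whose groups separate, and control replicate 1 lies among the PELP1-KD replicates for DICER1.

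DGCR8 (ENSG00000128191.15, plus strand of chromosome 22, chr22:20080232-20111877 on GRCh38, 14 exons) encodes the RNA-binding partner of DROSHA. Its level was 44.9, 47.9 and 46.3 CPM in control replicates 1, 2 and 3, and 38.5, 40.3 and 39.3 CPM in PELP1-KD replicates 1, 2 and 3. The 2 groups were separate, with the highest PELP1-KD value below the lowest control value. DGCR8 averaged 46.3 ± 1.5 CPM in controls and 39.4 ± 0.941 CPM in PELP1-KD cells (SD, n = 3 each), and its log2FC was -0.24 (standard error 0.054, 95% interval -0.35 to -0.12, edgeR adjusted p 0.00114). This fall passed the test in each of the 15 alternative analyses, with a log2FC between -0.30 and -0.19. A two-sided exact permutation test of the 3 against 3 values gave p = 0.1, the smallest it allows.

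Of the 9 genes, DGCR8 was the one with exons holding annotated miRNA hairpins. The mature miRNAs that RefSeq places there on GRCh38.p14 are printed because they mark where the DGCR8 mRNA is a Microprocessor substrate. The seed, bases 2 to 8, is in capitals.
hsa-miR-3618 (chr22:20085797-20085818, plus strand): uGUCUACAuuaaugaaaagagc
hsa-miR-1306-5p (chr22:20086072-20086093, plus strand): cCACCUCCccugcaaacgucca
hsa-miR-1306-3p (chr22:20086112-20086129, plus strand): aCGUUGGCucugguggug
The count tables list MIR3618 and MIR1306 as rows of their own, and both had 0 counts in all 6 libraries. Reads that fall on overlapping genes may have been set aside as ambiguous, so these rows do not show whether such reads were present. On the opposite strand, an exon of TRMT2A overlaps DGCR8 by 12 bases. TRMT2A, a tRNA methyltransferase, was higher in PELP1-KD cells, at 55.6 ± 1.59 CPM against 48.1 ± 2.8 CPM (log2FC 0.21, edgeR adjusted p 0.00325), but not with G+C and length offsets (0.06, adjusted p 0.244). AC006547.2, an antisense gene with no row in the tables, overlaps DGCR8 by up to 439 bases in an exon.

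DROSHA (ENSG00000113360.16, minus strand, chr5:31400497-31532196) encodes the nuclease of the Microprocessor. It was measured at 139.8, 139.1 and 138.1 CPM in the controls and at 134.4, 142 and 146.5 CPM in PELP1-KD cells. The PELP1-KD replicates lay on both sides of the controls, whose own SD was 0.849 CPM. Its log2FC was 0.02 with a 95% interval from -0.06 to 0.10 (adjusted p-value 0.682). Because the nuclease and its partner act as a complex, their ratio was followed in each replicate. The log2 ratio of DROSHA to DGCR8 CPM was 1.64, 1.54 and 1.58 in the controls and 1.80, 1.82 and 1.90 in PELP1-KD cells. The groups did not overlap, and the mean ratio was higher by 0.25 on the log2 scale in PELP1-KD cells (standard error 0.041). This difference mostly restates the fall of DGCR8 (log2FC -0.24), as DROSHA had a log2FC of 0.02. With 3 against 3, the two-sided exact permutation test reached its smallest p of 0.1 (0.337 after adjustment over the 9 ratios examined).

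XPO5 (ENSG00000124571.17, minus strand, chr6:43522330-43576075) encodes the export receptor for pre-miRNAs, which binds its cargo together with RAN-GTP. It had the most reads of the 9 genes, with 239.5, 233.9 and 235 CPM in the controls and 241.8, 236.5 and 245.8 CPM in PELP1-KD cells. The groups overlapped, and XPO5 had the smallest standard error of the 9 genes. Its log2FC was 0.03 (standard error 0.032, 95% interval -0.04 to 0.10, adjusted p-value 0.435), and it passed the test with library totals alone (0.08, adjusted p-value 0.0389). An exon of POLR1C, an RNA polymerase subunit gene, overlaps XPO5 by 129 bases on the opposite strand. POLR1C had a log2FC of -0.03 (adjusted p-value 0.588).

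DICER1 (ENSG00000100697.14, minus strand, chr14:95086228-95158010, 29 exons) encodes the cytoplasmic nuclease. Its level was 109.8, 92.7 and 96.9 CPM in control replicates 1, 2 and 3, and 116.1, 108.2 and 109.3 CPM in PELP1-KD replicates 1, 2 and 3. Control replicate 1 lay above PELP1-KD replicates 2 and 3, so the groups overlapped. DICER1 averaged 99.8 ± 8.93 CPM in controls and 111.2 ± 4.26 CPM in PELP1-KD cells (SD, n = 3 each), and its log2FC was 0.16 (standard error 0.053, 95% interval 0.05 to 0.27, edgeR adjusted p 0.0174). The coefficient of variation in the controls was 8.95%, the highest of the 9 genes in that group. The call was lost without control replicate 2 (log2FC 0.10, adjusted p-value 0.152), without control replicate 3 (0.14, adjusted p-value 0.0593) and without PELP1-KD replicate 1 (0.13, adjusted p-value 0.0844), and without control replicate 1 the log2FC was 0.23 (adjusted p-value 1.39e-05).

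TARBP2 and PRKRA encode paralogous RNA-binding proteins that hold DICER1, and PRKRA is also known as an activator of the kinase PKR. TARBP2 (ENSG00000139546.10, plus strand, chr12:53500921-53506431) had 33.9, 35.5 and 37.4 CPM in the controls and 32.1, 36.1 and 33.3 CPM in PELP1-KD cells. Its log2FC was -0.07 (95% interval -0.20 to 0.06, adjusted p-value 0.348). The 2 groups overlapped in both paralogs. PRKRA (ENSG00000180228.12, minus strand, chr2:178431414-178451512) had 52.2, 50.0 and 54.3 CPM in the controls and 54.1, 52.1 and 54.2 CPM in PELP1-KD cells. Its log2FC was 0.04 (95% interval -0.07 to 0.14, adjusted p-value 0.567). The log2 ratio of TARBP2 to PRKRA was -0.55 ± 0.067 (SD, n = 3) in the controls and -0.66 ± 0.12 (SD, n = 3) in PELP1-KD cells, and the groups overlapped. The log2 ratio of DICER1 to TARBP2 was higher by 0.23 (standard error 0.13) in PELP1-KD cells and that of DICER1 to PRKRA by 0.12 (standard error 0.076), again with overlapping groups.

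**Figure D2:**
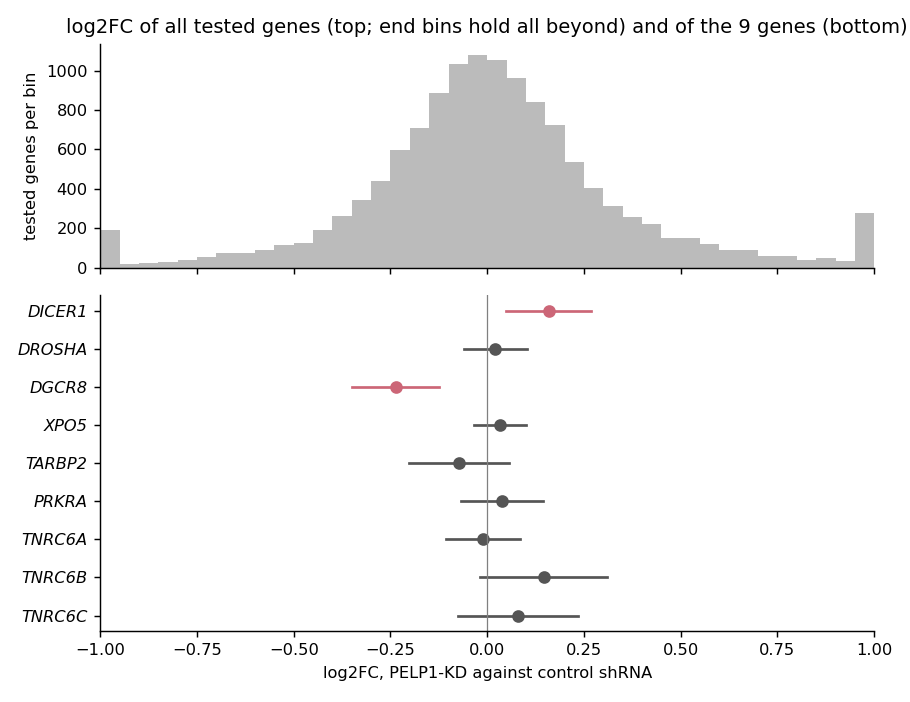
Top, number of tested genes per bin of 0.05 in log2FC, the end bins holding all genes beyond 0.95 in size. Bottom, log2FC of the 9 genes with 95% intervals (red, adjusted p-value below 0.05; grey, above); all 9 lie between -0.24 and 0.16, and the intervals of 7 of them include 0.

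The TNRC6 genes encode the GW-repeat scaffold proteins that bridge Argonaute and the deadenylases. TNRC6A (ENSG00000090905.18, plus strand, chr16:24610209-24827632) had 68.8, 66.0 and 67.6 CPM in the controls and 66.2, 68.8 and 65.8 CPM in PELP1-KD cells. TNRC6A had the log2FC nearest to 0 of the 9 genes, at -0.01 (95% interval -0.11 to 0.09, adjusted p-value 0.866). TNRC6B (ENSG00000100354.20, plus strand, chr22:40044817-40335808) had 15.5, 15.97 and 17.45 CPM in the controls and 17.95, 17.06 and 19.0 CPM in PELP1-KD cells. Only PELP1-KD replicate 2 fell within the range of the controls for TNRC6B. Its log2FC of 0.15 did not pass the test (standard error 0.079, 95% interval -0.02 to 0.31, adjusted p-value 0.135), and it carried the largest standard error of the 9 genes. TNRC6C (ENSG00000078687.17, plus strand, chr17:77959240-78108835) had 18.3, 18.7 and 18.4 CPM in the controls and 18.2, 19.7 and 20.6 CPM in PELP1-KD cells. Its log2FC was 0.08 (95% interval -0.07 to 0.23, adjusted p-value 0.394). The antisense gene TNRC6C-AS1, without a row in the tables, overlaps TNRC6C by up to 1438 bases in an exon. The TNRC6A to TNRC6B log2 ratio was 2.05 ± 0.099 (SD, n = 3) in the controls and 1.89 ± 0.11 (SD, n = 3) in PELP1-KD cells (difference -0.16, standard error 0.086, two-sided exact permutation test p = 0.2, adjusted p = 0.337).

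**Figure D3:**
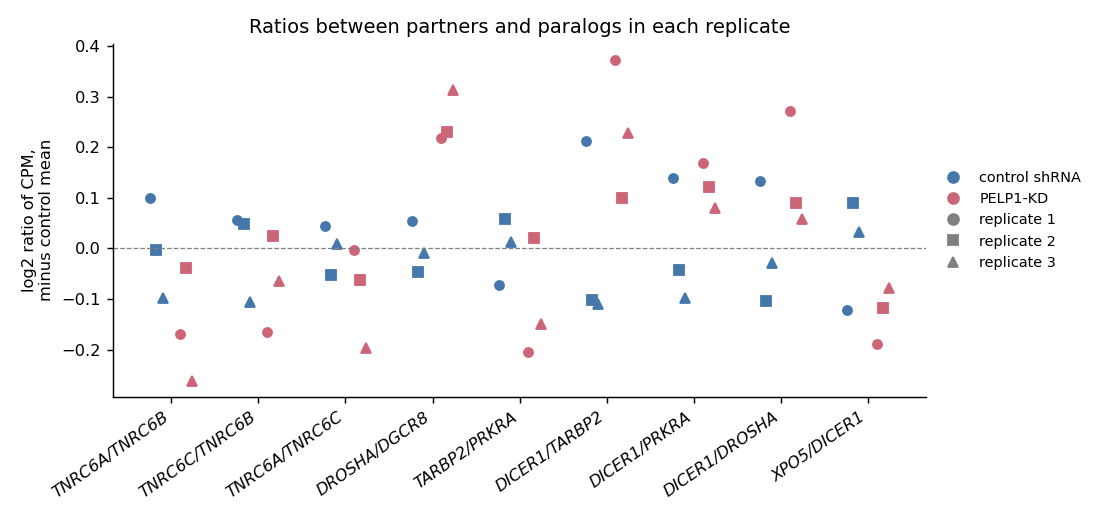
Log2 ratio of CPM between partner genes in each replicate, with the mean of the control replicates subtracted (blue, control shRNA; red, PELP1-KD; marker shape, replicate number). DROSHA/DGCR8 is the ratio of the 9 whose groups do not overlap, with PELP1-KD higher by 0.25.

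Levels of different genes were compared per length, as RPKM (CPM per kilobase of exon), with exon lengths from GENCODE release 29. In control cells XPO5 was highest at 27.7 RPKM ± 0.348 (SD, n = 3), followed by DROSHA at 17.9 RPKM ± 0.109 and PRKRA at 13.2 RPKM ± 0.54. TARBP2 and DICER1 came next, at 8.70 RPKM ± 0.43 and 8.12 RPKM ± 0.727, and these neighbours overlapped in both groups. DGCR8 had 6.33 RPKM ± 0.205 and TNRC6A 5.22 RPKM ± 0.11 in the controls. In PELP1-KD cells DGCR8 had come down to 5.38 RPKM ± 0.129 and overlapped TNRC6A, at 5.18 RPKM ± 0.129, from which it was separate in the controls. TNRC6C and TNRC6B were lowest, at 1.66 RPKM ± 0.0219 and 0.815 RPKM ± 0.0512 in the controls. Apart from the order of DICER1 and TARBP2, the members kept the same order in PELP1-KD cells. TNRC6A made up 67.8% ± 0.83 (SD, n = 3) of the summed RPKM of the 3 TNRC6 genes in the controls and 66.1% ± 1.5 (SD, n = 3) in PELP1-KD cells. The lengths set part of this order: with the longest coding transcript of each gene in place of all its exons, PRKRA stood above DROSHA (28.6 against 26.2 RPKM in the controls), while XPO5 stayed first and TNRC6B last. On that scale DGCR8 and DICER1 were at 10.3 ± 0.332 and 9.66 ± 0.865 RPKM in the controls, within their spread, and at 8.72 ± 0.209 and 10.8 ± 0.413 RPKM in PELP1-KD cells (SD, n = 3 each).

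**Figure D4:**
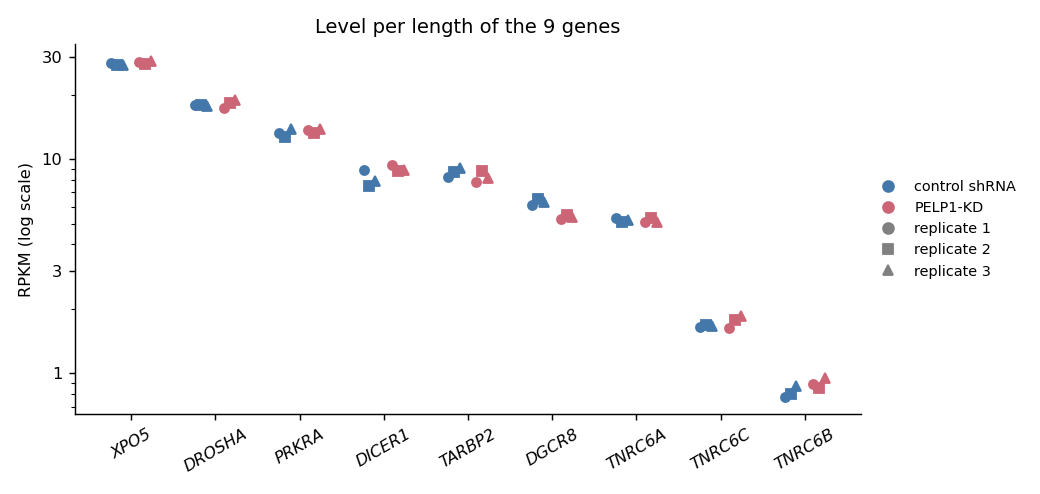
RPKM of the 9 genes in each replicate on a log scale, ordered by the mean of all replicates (blue, control shRNA; red, PELP1-KD; marker shape, replicate number). XPO5 is highest, near 28 RPKM, and TNRC6B lowest, below 1 RPKM, in both groups.

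The 9 mRNAs differ widely in build. The annotated 3' UTR has 283 bases in TARBP2, 4270 bases in DICER1 and 12566 bases in TNRC6B, the last longer than in 99.5% of tested genes, and the G+C content of the transcript runs from 39.2% in DICER1 to 60.8% in TARBP2. When G+C content and exon length were fitted in each library and taken out, DICER1 had a log2FC of 0.30 (adjusted p-value 3.38e-08), TNRC6B of 0.24 (adjusted p-value 0.00933), TARBP2 of -0.19 (adjusted p-value 0.00276) and DGCR8 of -0.30 (adjusted p-value 4.13e-06), by edgeR. TARBP2 passed the test in no setting without these offsets, and TNRC6B in none but library totals (log2FC 0.20, adjusted p-value 0.0472). DROSHA passed with offsets and the replicate block (0.07, adjusted p-value 0.0439).

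Over the 6 samples, the genes whose log2 CPM followed DGCR8 most closely among 12796 tested genes were LGALS1, which encodes galectin-1 (Pearson's r = 0.997), SLC9A3R2 (r = 0.996) and PCYT2 (r = 0.995). Those closest to DICER1 were C1orf55 (r = 0.992), MARCH1 (r = 0.99) and PDPK1 (r = 0.99). All 6 points are shared with the comparison of the groups, so these values are a description. MARCH1 was below 1 CPM in every replicate.

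The 4 Argonaute genes, listed in the tables under their older symbols EIF2C1 to EIF2C4, encode the proteins that hold the mature miRNA. AGO2, the member known for cutting targets, had 33.3, 37.3 and 35.4 CPM in the controls and 33.3, 32.9 and 31.3 CPM in PELP1-KD cells. The AGO2 groups were only barely separate, with control replicate 1 at 33.34 CPM and PELP1-KD replicate 1 at 33.28 CPM. Its log2FC of -0.13 did not pass the test (standard error 0.061, adjusted p-value 0.0918), though it did without control replicate 1 (-0.17, adjusted p-value 0.0255). AGO1 had 28.0, 24.5 and 25.8 CPM in the controls and 29.2, 27.2 and 31.9 CPM in PELP1-KD cells. Its groups overlapped, and its log2FC of 0.18 passed narrowly (standard error 0.072, adjusted p-value 0.0444), but not under DESeq2 (adjusted p-value 0.0885) or without control replicate 2 (log2FC 0.13), control replicate 3 (0.17), PELP1-KD replicate 1 (0.19) or PELP1-KD replicate 3 (0.12). For AGO3 the log2FC was -0.09 (adjusted p 0.556), and for AGO4 0.06 (adjusted p 0.538).

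Of 101 further genes of the pathway, 82 were tested, and 31 were lower and 12 higher in PELP1-KD cells. This is 52.4% called, against 46.9% of all tested genes (24.2% lower and 22.7% higher). Scaled by library totals, 18 were lower and 15 higher, and over all genes 2419 were lower and 3817 higher, against 3103 and 2904 with TMM scaling. The median log2FC of the 82 genes was -0.09. Among 14 cofactors that act on pri-miRNAs, 7 were lower by edgeR and 7 did not pass the test. All called cofactors were lower, so their 50% stands beside the 24.2% of all tested genes called lower. This lean in direction was not tested. KHSRP, which binds the terminal loop of let-7 and other precursors and aids their cutting, had 307.4, 317.1 and 330.1 CPM in the controls and 171.3, 177.2 and 180.1 CPM in PELP1-KD cells. It was 44.6% lower, with well separated groups at log2FC -0.85 (SE 0.035, edgeR adjusted p 8.79e-14), beside -0.97 for PELP1. HNRNPA2B1, a reader of methylated pri-miRNAs, fell, averaging 2003 ± 28.6 CPM in controls and 1571 ± 38.6 CPM in PELP1-KD cells (log2FC -0.35, adjusted p 3.6e-10, and -0.21 with G+C and length offsets).

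**Figure D5:**
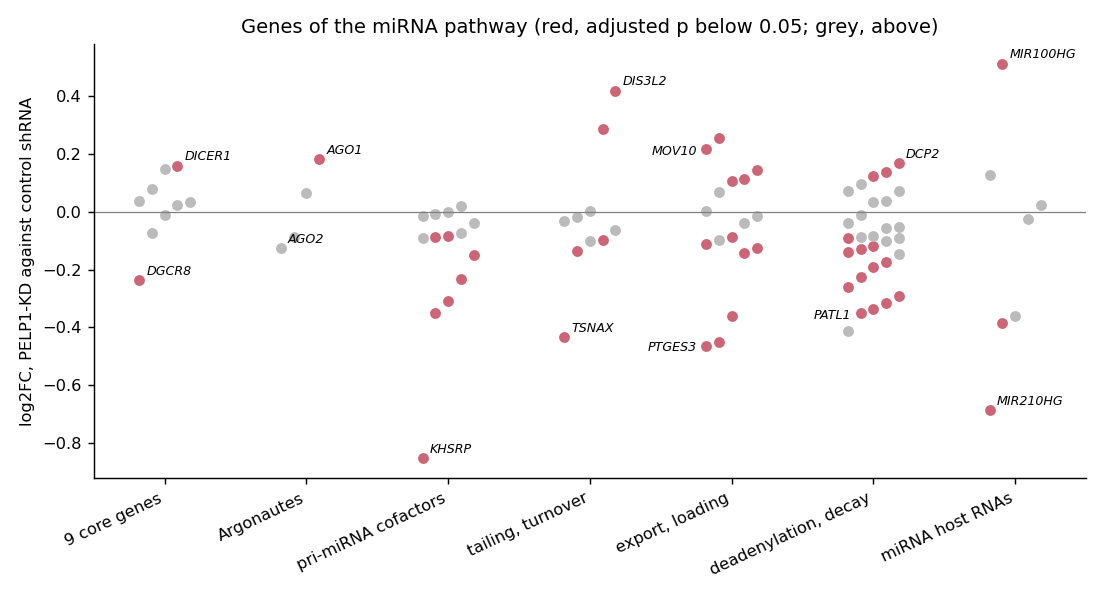
Log2FC of the 9 core genes and of 6 lists of other pathway genes, 1 point per tested gene (red, adjusted p-value below 0.05; grey, above; horizontal offsets only separate points). KHSRP lies lowest, at -0.85, and the 9 core genes lie between -0.24 and 0.16.

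Of 12 genes for the tailing, trimming and turnover of pre-miRNAs, 10 were tested, of which 3 were lower and 2 higher (50% called against 46.9%). TSNAX and TSN, the subunits of the C3PO nuclease that clears passenger strands, both fell, by 0.43 and 0.13 on the log2 scale (adjusted p-values 1.37e-05 and 0.00439), the fall of TSN not passing with library totals (adjusted p-value 0.0546). DIS3L2, which degrades oligouridylated pre-let-7, rose, averaging 17.4 ± 0.908 CPM in controls and 23.3 ± 1.67 CPM in PELP1-KD cells (log2FC 0.42, adjusted p 1.3e-04). ZC3H12A, a nuclease that cuts pre-miRNA loops and inflammatory mRNAs, rose by a log2FC of 0.28 (adjusted p-value 3.69e-04). With G+C and length offsets the log2FC was -0.27 for TSNAX, -0.07 for TSN (adjusted p 0.0453) and 0.13 for ZC3H12A (adjusted p 0.0241). LIN28B, a blocker of let-7 maturation, had 0 counts in all libraries, and LIN28A had 1 count in 1 library, under the floor of 3 counts.

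Of 17 nuclear export and loading factors, 7 were lower and 5 higher, or 70.6% called against 46.9% of all tested genes (24.2% lower and 22.7% higher). Several of these genes had many reads and small standard errors, as HSP90AB1 (2781 CPM in controls, log2FC -0.13, standard error 0.023). The share was not compared with that of genes of like level. PTGES3, the p23 cochaperone, fell by 0.46 on the log2 scale (adjusted p-value 8.3e-10), HSP90AA1 by 0.36 (adjusted p-value 6.04e-10). FKBP4 and the helicase gene MOV10 rose, FKBP4 with a log2FC of 0.14 (adjusted p 0.0018) and MOV10 with 0.22 (adjusted p 0.00521, and 0.14 with G+C and length offsets). PTGES3 and HSP90AA1 have near-identical pseudogene copies, and reads aligned to several places were counted on no gene. Of 30 genes for deadenylation, decapping and decay, 12 were lower and 3 higher. This is 50% called, against 46.9% of all tested genes (24.2% lower and 22.7% higher). PABPC1, the poly(A)-binding protein that TNRC6 proteins contact, fell, averaging 1276 ± 50.8 CPM in controls and 1025 ± 2.88 CPM in PELP1-KD cells (log2FC -0.32, adjusted p 1.12e-08). PATL1, a decapping cofactor, fell by 0.35 on the log2 scale (adjusted p-value 4.33e-07). The decapping enzyme gene DCP2 and the CCR4-NOT subunit gene CNOT11 rose, at log2FC 0.17 (adjusted p 0.00844) and 0.14 (adjusted p 0.00882), CNOT11 not passing with G+C and length offsets (0.08, adjusted p 0.0587), under which DCP2 had a log2FC of 0.33.

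These poly(A) libraries do not measure mature miRNAs: of 1223 rows of miRNA hairpins, 156 had a read in any library, and together they held 0.00205% of the counts. Host transcripts can be seen. Of 24 host RNA genes listed, 11 had a row and 7 were tested, of which 2 were lower and 1 higher (42.9% called against 46.9%). MIR100HG had 15.9, 17.2 and 15.2 CPM in the controls and 22.7, 23.5 and 22.9 CPM in PELP1-KD cells. The groups were well apart, with log2FC 0.51 (SE 0.073, adjusted p 8.11e-06). MIR210HG and DLEU2, named after their values were seen, had overlapping groups, at log2FC -0.69 (adjusted p 0.0116) for MIR210HG and -0.39 (adjusted p 0.0449) for DLEU2. MIR210HG did not pass without control replicate 2 (-0.42, adjusted p 0.147) or PELP1-KD replicate 3 (-0.59, adjusted p 0.0616). DLEU2 did not pass under DESeq2 (adjusted p 0.138), limma-voom (0.0509), library totals (0.0785) or offsets with block (0.0501), nor without control replicate 2 (-0.24), control replicate 3 (-0.41), PELP1-KD replicate 2 (-0.27) or PELP1-KD replicate 3 (-0.43). RefSeq on GRCh38.p14 places 7 mature miRNAs within the span of MIR100HG, 2 in MIR210HG and 6 in DLEU2, on the strand of the host. Some of them, not chosen by any measured level, are printed with the seed in capitals. They show which miRNAs the host RNAs could give rise to. Their own levels were not measured.
hsa-let-7a-5p (MIR100HG, chr11:122146568-122146589, minus strand): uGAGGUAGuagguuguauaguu
hsa-miR-100-5p (MIR100HG, chr11:122152275-122152296, minus strand): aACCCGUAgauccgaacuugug
hsa-miR-125b-5p (MIR100HG, chr11:122099809-122099830, minus strand): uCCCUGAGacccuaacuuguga
hsa-miR-210-3p (MIR210HG, chr11:568112-568133, minus strand): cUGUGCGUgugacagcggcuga
hsa-miR-15a-5p (DLEU2, chr13:50049167-50049188, minus strand): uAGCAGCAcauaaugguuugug
hsa-miR-16-5p (DLEU2, chr13:50049027-50049048, minus strand): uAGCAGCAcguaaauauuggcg
Among these, miR-15a-5p and miR-16-5p share their seed. The others each have a seed of their own.

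The 3' UTRs of the 9 genes were searched for the letters that pair with the seeds of the 3 MIR100HG miRNAs printed above. Only the given strand was read, in the longest coding transcript of GENCODE 29. CTACCTC, for let-7a-5p, was found once, in TARBP2, and stands in 2.43% of 3' UTRs of like length (from 0.8 times its length to its length divided by 0.8). CTCAGGG, for miR-125b-5p, was found once, in DICER1, and stands in 29.8% of those of like length. TACGGGT, for miR-100-5p, was in none of the 9, against 1.27% of the 3' UTRs of all tested genes. The stretches are printed with the match in capitals.
TARBP2, bases 103 to 109 of the 3' UTR, pairing with hsa-let-7a-5p: ctgtgggtgccatctCTACCTCtga
DICER1, bases 2297 to 2303 of the 3' UTR, pairing with hsa-miR-125b-5p: attaggtcatacattCTCAGGGgtt
A match is a description of letters and not a shown site.

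Because the study follows c-Myc, the promoters of the 9 genes (250 bases before to 50 after each of 20 annotated starts, RefSeq, GRCh38.p14) were read for the E-box CACGTG, which reads the same on both strands. It was found at 1 start, of TNRC6C, with its first base at position -105 of that start, against 9.17% of the promoters of tested genes and 7.26% of all promoters in the table. The stretch is given with the E-box in capitals.
TNRC6C (chr17:77958586-77958615, plus strand): tacggtgggagtCACGTGctaggggccggg
TNRC6C was among the 7 genes that did not pass the test.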

How the data were processed

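RNA-seq libraries (TruSeq stranded mRNA, single reads of 50 bases) came from 3 control shRNA and 3 PELP1-KD replicates of MDA-MB-231. The authors deposited whole-number read counts per gene symbol for each replicate, without normalization. The submitters' processing notes name TopHat2, SAMtools and HTSeq and the build hg19. The gene annotation, tool versions and strand setting are not given in the sources used here, so reads of a gene and of an overlapping antisense gene may not be separated. The closing totals of the tables (no feature, ambiguous, not unique) were between 41% and 41.4% of all lines and were kept out. Counts on genes ranged from 17304864 to 23132102. Floors and intervals cover counting error or the spread of these samples only.

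Genes passing filterByExpr (minimum count 10) were scaled by TMM and tested in edgeR 4.0.16 (R 4.3.3) by the quasi-likelihood test on 2 groups, with Benjamini-Hochberg adjustment over 12796 genes. The standard error is the log2FC over the square root of F. CPM uses TMM library sizes. GENCODE 29 (GRCh38) gave lengths for 21543 of 23228 symbols. Coordinates come from GENCODE or RefSeq, not from the count tables. The fit was tested on simulated data with 100 genes changed by 1 and 100 by 0.3 on the log2 scale. It recovered 96% and 71% of them, and called 9 of 12596 unchanged genes. Far fewer genes were changed there than were called in the data. Changes as small as those of the 9 genes were not simulated. Ratios were compared with exact permutation tests in scipy 1.17.1. Alternatives were RLE factors, library totals, DESeq2 1.42.0, voom in limma 3.58.1, other filters, G+C and length offsets, a replicate block, and leaving out each replicate.

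Named genes are the 9 members, PELP1, AGO1 to AGO4, in each list up to 2 genes with the lowest p in each direction among called genes without overlap, and the 3 genes most correlated with DGCR8 and DICER1. The members and lists were chosen with earlier results of these data known. Seeds, E-box and hosts were searched after the values were seen.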

Additional observations from a re-analysis of the deposited data

How the results depend on the processing

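Of the 9 genes, 1 was called lower and 1 higher, where 46.9% of all tested genes were called. With G+C and length offsets 2 were lower and 2 higher (51.6% of all tested genes called). With these offsets and the replicate block 2 were lower and 3 higher (51.3%), and with library totals 1 and 3 (48.7%). With each replicate left out in turn, 1 of the 9 was lower and between 0 and 1 higher. Over all tested genes between 2723 and 3066 were then lower and between 2459 and 2837 higher. Of the other pathway genes 18 were lower with library totals, against 31. With each replicate left out, DROSHA ranged from -0.0081 (without PELP1-KD replicate 3) to 0.0572 and TNRC6A from -0.0300 to 0.0025, on the log2 scale, neither called. TNRC6A reversed to 0.0388 with library totals, 0.0603 with offsets and 0.0608 with offsets and block. POLR1C, not called, reversed to 0.0162 with library totals. AGO3 reversed to 0.0614 with offsets and 0.0714 with offsets and block. The cause of these shifts was not tested. The fold from the lowest to the highest RPKM of the 9 genes was 49.4 in controls and 45.7 in PELP1-KD cells by transcript length, against 34 and 31.5 by exon length. The replicate numbers are shared by both groups, and the labels do not say whether they pair the samples. Deviations of same-numbered replicates correlated at 0.039, 0.065 and -0.078, but with 3 replicates a group these values cannot exclude pairing. With the replicate block, 1 of the 9 genes was lower and 1 higher. Over all genes 3335 were then lower and 3140 higher, against 3103 and 2904 without it. The differences in the 9 partner ratios kept their direction with each replicate left out in turn, and changed little with 1 added to the counts. A replicate block cannot change these differences in a balanced design, so it was no check on them. None of these runs could reach an exact p under 0.05.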
